A study of Drosophila melanogaster with 6 samples.

Results

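The Polycomb group (PcG) and Trithorax group (TrxG) regulators were examined as RNA levels in males carrying K27R substitutions in the histone variant H3.3. The genes were chosen by name as core and accessory PcG proteins, TrxG proteins and enzymes that act on H3K27 and H3K4, with Psc and Su(z)2 left out. All 51 of these symbols were found among the 15115 genes of the deposited table.

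PcG proteins keep developmental genes silent, and TrxG proteins keep them active. In flies, Polycomb repressive complex 2 (PRC2) methylates lysine 27 of histone H3, the residue replaced by arginine in these mutants, and Polycomb repressive complex 1 (PRC1) binds the methylated histone and ubiquitinates H2A. TrxG proteins include H3K4 methyltransferases, the H3K27 acetyltransferase and demethylase, and ATP-dependent remodelers of the Brahma type.

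RNA was measured in whole male pharate adults, the stage just before eclosion (96 to 108 hours after puparium formation), with 2 libraries for each of 3 genotypes. Wild type animals were yw. The H3.3B K27R males, called the single mutant here, carried yw and the K27R allele of the X-linked gene H3.3B, so they were hemizygous for it, and their H3.3A genes were wild type. The double H3.3 K27R males, called the double mutant, carried the same H3.3B allele and were homozygous for H3.3A K27R. All 3 genotypes shared the yw background, and the replication-coupled H3 genes were not mutated in any of them. Each library came from a pool of whole males, so a level is an average over all tissues, and fewer cells of a type cannot be told apart from less RNA per cell. Nothing in the labels says whether the 2 libraries of a genotype came from separate crosses, and p-values therefore measure only the spread between these libraries.

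Libraries held between 1535941 and 2118264 reads on genes. The K27R alleles are point mutations, so the RNA levels of H3.3A and H3.3B do not check the genotype labels. The paper reports that the sequences of reads over the H3.3 genes bore out the mutant genotypes, which was not repeated here. The male-specific RNA roX1 was found in every library, at 158 to 211 RPKM (reads scaled to gene length in kilobases and to library depth). Of the 4 genes listed as female markers, the yolk protein genes had few reads: Yp1 0, Yp2 0 to 2 and Yp3 0 to 6 per library. The fourth, Sxl, had 283 to 397 reads, and the sex of the animals was not tested beyond these levels. Flight muscle markers summed to 9619 and 8815 RPKM in wild type, 9012 and 9085 in the single mutant and 9354 and 9679 in the double mutant, so the mutants overlapped wild type but not each other. The testis and germline list of 10 genes summed to 273 and 301 RPKM in wild type, 213 and 223 in the single mutant and 198 and 214 in the double mutant, so both mutants lay below wild type. Nearly all of this sum came from betaTub85D (137 and 141, 109 and 106, and 120 and 101 RPKM) and dj (126 and 151, 97.1 and 103, and 83.0 and 88.8 RPKM). Of its other genes, nos and bam had 0 to 2 reads per library, vas 0 to 7 and aub 1 to 9. The adult eye list of 7 genes summed to 1027 to 1112 RPKM in wild type and the single mutant and to 1244 and 1248 in the double mutant. The rhodopsin gene ninaE had 808 and 859 RPKM in wild type, 824 and 901 in the single mutant and 1008 and 1027 in the double mutant. The other 6 genes summed to 219 and 248, 202 and 211, and 235 and 221 RPKM, so that the double mutant overlapped wild type. Cell division markers, 9 genes, summed to 54.1 and 63.6 RPKM in wild type, 64.9 and 60.3 in the single mutant and 51.5 and 51.04 in the double mutant. The largest part of this sum was stg, with 22.1 and 31.7 RPKM in wild type, 44.1 and 39.9 in the single mutant and 25.4 and 26.3 in the double mutant. By contrast polo was below wild type in both mutants (9.91 and 9.98, 5.96 and 6.28, and 7.42 and 9.18 RPKM). The order of the genotypes in the sum is therefore not that of each gene. Accessory gland markers summed to 2267 and 1048 RPKM in the wild type libraries and to between 885 and 1454 RPKM in the mutants. The part of tissue composition in the values that follow was not tested.

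All 51 regulators were expressed in the pharate male, most of them at moderate levels. In wild type their median was 10.2 RPKM, close to the 9.54 RPKM of the 11304 genes with a mean of at least 1 RPKM, and 28 of 51 lay above the middle of those genes. The wild type means of 36 members fell between 5 and 25 RPKM. The highest and lowest members differed 91.7-fold. When members were ordered by wild type level, 9 of the 50 neighbouring pairs had libraries that did not overlap, so the order is firm at the top and loose in the middle.

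The 6 most abundant members were lolal, osa, kis, corto, psq and dalao, in that order, and the first 5 of them were each separated from the next by non-overlapping wild type libraries. The gene lolal, which encodes a small BTB protein that binds the GAGA factor, reached 91.4 and 108 RPKM in wild type. Its gene model in the deposited table is 0.656 times the length of the exons in the BDGP6 annotation, so its level per length depends on the annotation used. Osa, the signature subunit of the BAP form of the Brahma complex, had 41.8 and 46.4 RPKM. Kismet, a chromodomain helicase, had 29.8 and 33.1 RPKM from 911 to 1349 reads in a library, the most of any member. At the other end, escl, E(z), Trl, polybromo and calypso were all below 4 RPKM in wild type. The 11 members with fewer than 20 reads in at least 1 library carry the largest counting error.

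**Figure D1:**
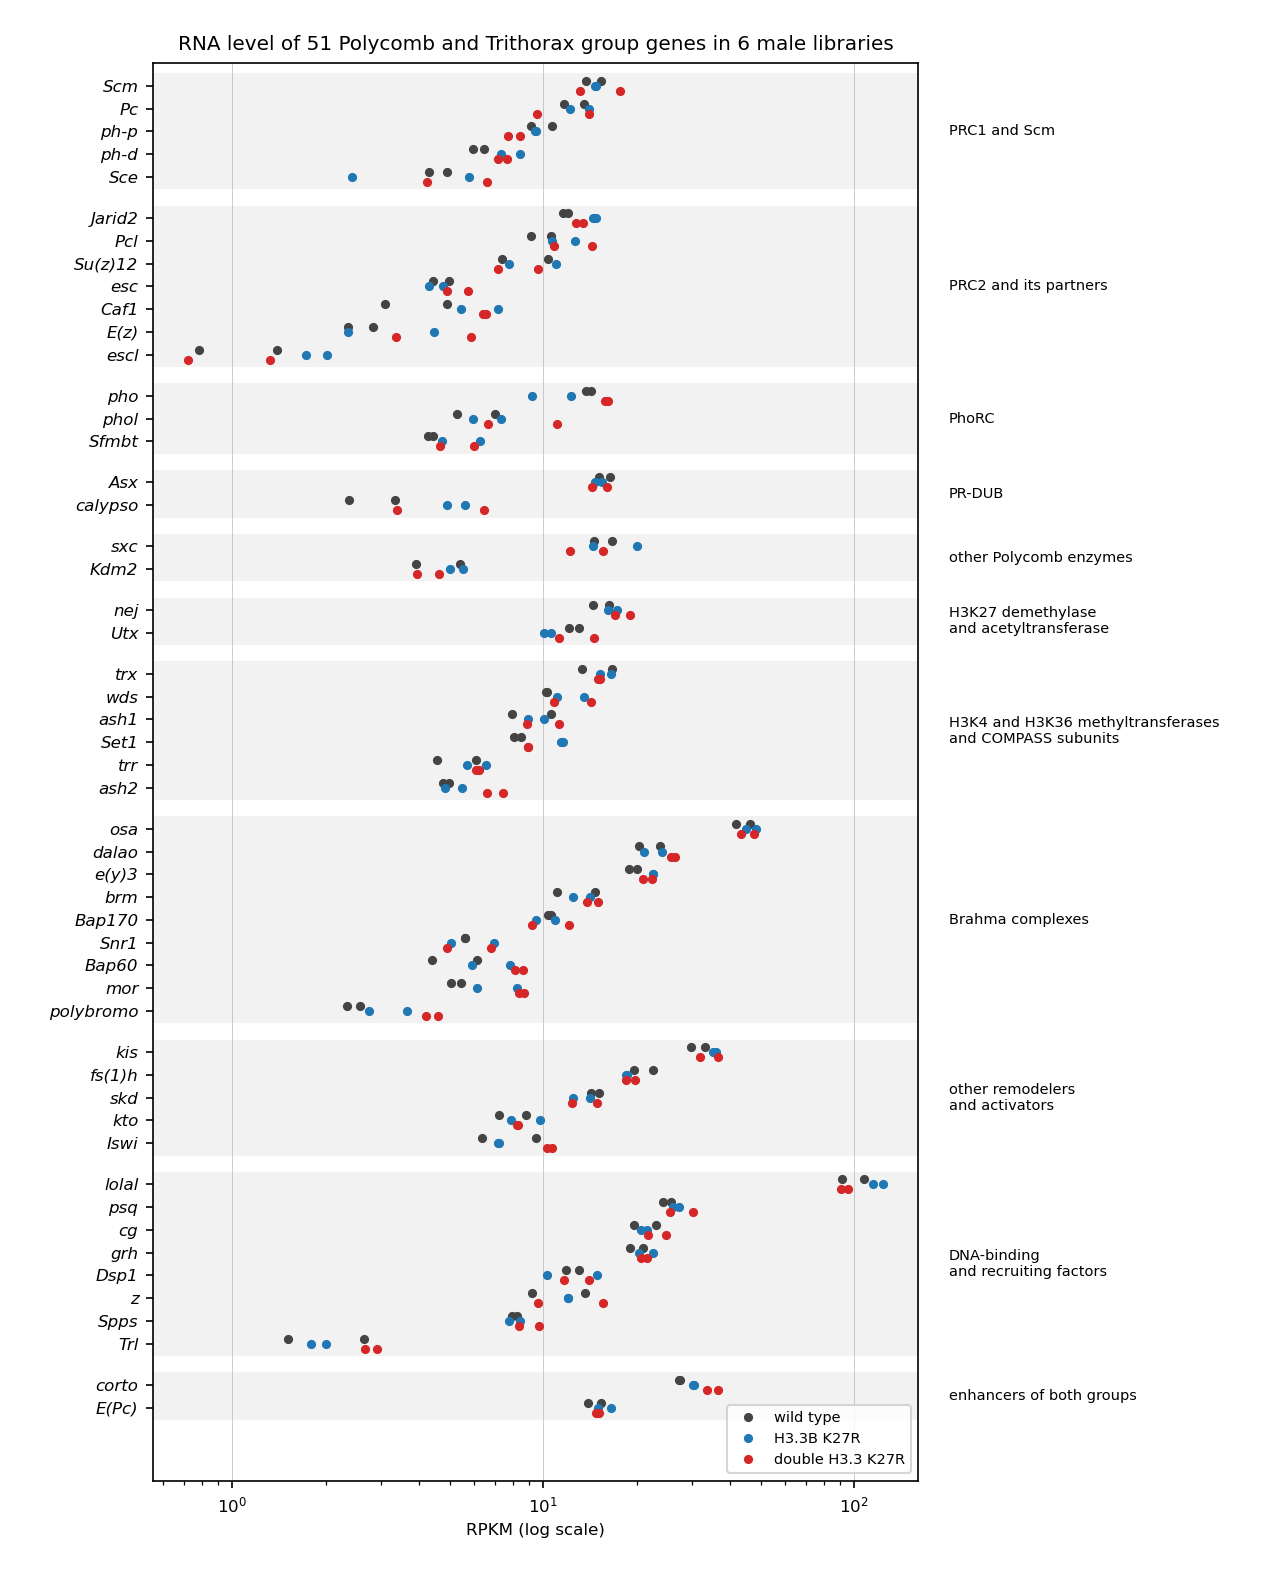
RPKM (x axis, log scale) of the 51 regulators (y axis, grouped by role and ordered by wild type mean) in each of the 6 libraries, with 1 point per library coloured by genotype. The 3 colours, offset vertically, lie close together on the log scale for most genes, though many members have genotypes whose libraries do not overlap. The gene lolal stands highest at 90.9 to 124 RPKM and escl lowest at 0.72 to 2.02 RPKM.

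Among the PRC1 subunits and Scm, the levels of Pc, Sce and Scm overlapped in the 3 genotypes, while those of ph-d and ph-p did not in every comparison. Polycomb (Pc), the chromodomain subunit of PRC1 that reads methylated H3K27, had 13.5 and 11.7 RPKM in wild type, 14.0 and 12.2 in the single mutant, and 14.1 and 9.52 in the double mutant. Sce, the RING subunit that ubiquitinates H2A, had 4.89 and 4.29 RPKM in wild type, 5.75 and 2.43 in the single mutant, and 6.59 and 4.22 in the double mutant. For both genes each mutant's libraries spanned the wild type range or overlapped it. Sce rested on only 6 to 17 reads per library, and its replicate gap of 0.98 on the log2 scale in the single mutant was the widest of any member in that genotype.

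The Polyhomeotic proteins, which polymerise through their SAM domains, are encoded by the tandem X-linked genes ph-p (X:2126210-2138371, BDGP6) and ph-d (X:2115727-2123286). Levels of ph-p were 9.16 and 10.7 RPKM in wild type, 9.39 and 9.5 in the single mutant, and 8.42 and 7.70 in the double mutant. Those of ph-d were 5.94 and 6.44 RPKM in wild type, 8.44 and 7.33 in the single mutant, and 7.15 and 7.65 in the double mutant. The libraries of ph-d were therefore higher than wild type in both mutants without overlap, and those of ph-p lower than wild type in the double mutant. These paralogs are nearly identical in sequence and their separate values are uncertain, since reads that map to both could be dropped or split. Scm, a SAM-domain partner of PRC1, had 15.3 and 13.7 RPKM in wild type, 14.6 and 14.7 in the single mutant, and 17.6 and 13.1 in the double mutant, with overlap throughout.

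None of the 5 genes of this group passed an adjusted p of 0.05 in limma in either mutant, and 0 had an unadjusted p below 0.05. Their log2 fold changes ran from -0.21 (Sce) to 0.30 (ph-d) in the single mutant and from -0.27 (ph-p) to 0.23 (ph-d) in the double mutant. The 95% interval for Pc was -0.49 to 0.58 in the former and -0.64 to 0.43 in the latter. Summed over the group, the level was 47.8 ± 1.40 RPKM in wild type, 49.2 ± 4.28 in the single mutant and 48.0 ± 8.23 in the double mutant (SD, n = 2 libraries each).

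PRC2 and its partners spanned a wider range of levels, and their means lay mostly above wild type in the mutants without any passing the test. E(z), the H3K27 methyltransferase itself (3L:10634575-10638130, BDGP6), had 2.36 and 2.83 RPKM in wild type, 2.35 and 4.45 in the single mutant, and 3.36 and 5.86 in the double mutant. The double mutant libraries were both above wild type, and the single mutant libraries were split. The log2 fold change in the double mutant was 0.61, with a 95% interval from -0.27 to 1.49 and an adjusted p of 0.509 (limma). The gene had 10 to 24 reads per library, and an increase of up to 2.81-fold in RPKM + 1, the scale of the fit, lies within its interval. At so low a level this scale understates the fold change of RNA. The estimate was 1.53-fold in RPKM + 1, while the mean RPKM of the double mutant was 1.78-fold that of wild type.

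The WD40 subunit that binds methylated H3K27 is encoded by esc and its paralog escl. Levels of esc were 4.43 and 4.99 RPKM in wild type, 4.29 and 4.76 in the single mutant, and 4.91 and 5.73 in the double mutant. Levels of escl were 1.39 and 0.78 RPKM in wild type, 2.02 and 1.72 in the single mutant, and 1.32 and 0.72 in the double mutant, from 2 to 7 reads per library. The single mutant libraries of escl lay above both other genotypes, and its interval for that comparison with wild type ran from -0.46 to 1.41.

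Su(z)12, the zinc-finger subunit needed for PRC2 activity, had 7.36 and 10.4 RPKM in wild type, 7.77 and 11.0 in the single mutant, and 9.62 and 7.15 in the double mutant, with full overlap. The histone-binding WD40 protein Caf1, shared by PRC2, chromatin assembly factor 1 and remodelers, had 3.09 and 4.91 RPKM in wild type, 5.43 and 7.17 in the single mutant, and 6.54 and 6.41 in the double mutant. All 4 mutant libraries of Caf1 were thus above both wild type libraries. Its log2 fold changes were 0.56 (95% interval -0.09 to 1.21, adjusted p 0.463) in the single mutant and 0.60 (-0.05 to 1.25, adjusted p 0.375) in the double mutant (limma), from 9 to 21 reads per library.

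Pcl, a Polycomb-like partner of PRC2, had 9.15 and 10.6 RPKM in wild type, 10.7 and 12.6 in the single mutant, and 10.9 and 14.4 in the double mutant. Jarid2, an accessory PRC2 protein, had 11.6 and 11.99 RPKM in wild type, 14.4 and 14.7 in the single mutant, and 12.8 and 13.4 in the double mutant. Both stood above wild type without overlap in each mutant. With log2 fold changes of 0.29 (interval -0.08 to 0.65) in the single mutant and 0.14 (-0.22 to 0.50) in the double mutant, Jarid2 had tight replicates and a small difference. Over the 7 genes of this group the summed level was 42.9 ± 5.05 RPKM in wild type, 51.7 ± 6.69 in the single mutant and 51.5 ± 2.99 in the double mutant (SD, n = 2 each).

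**Figure D2:**
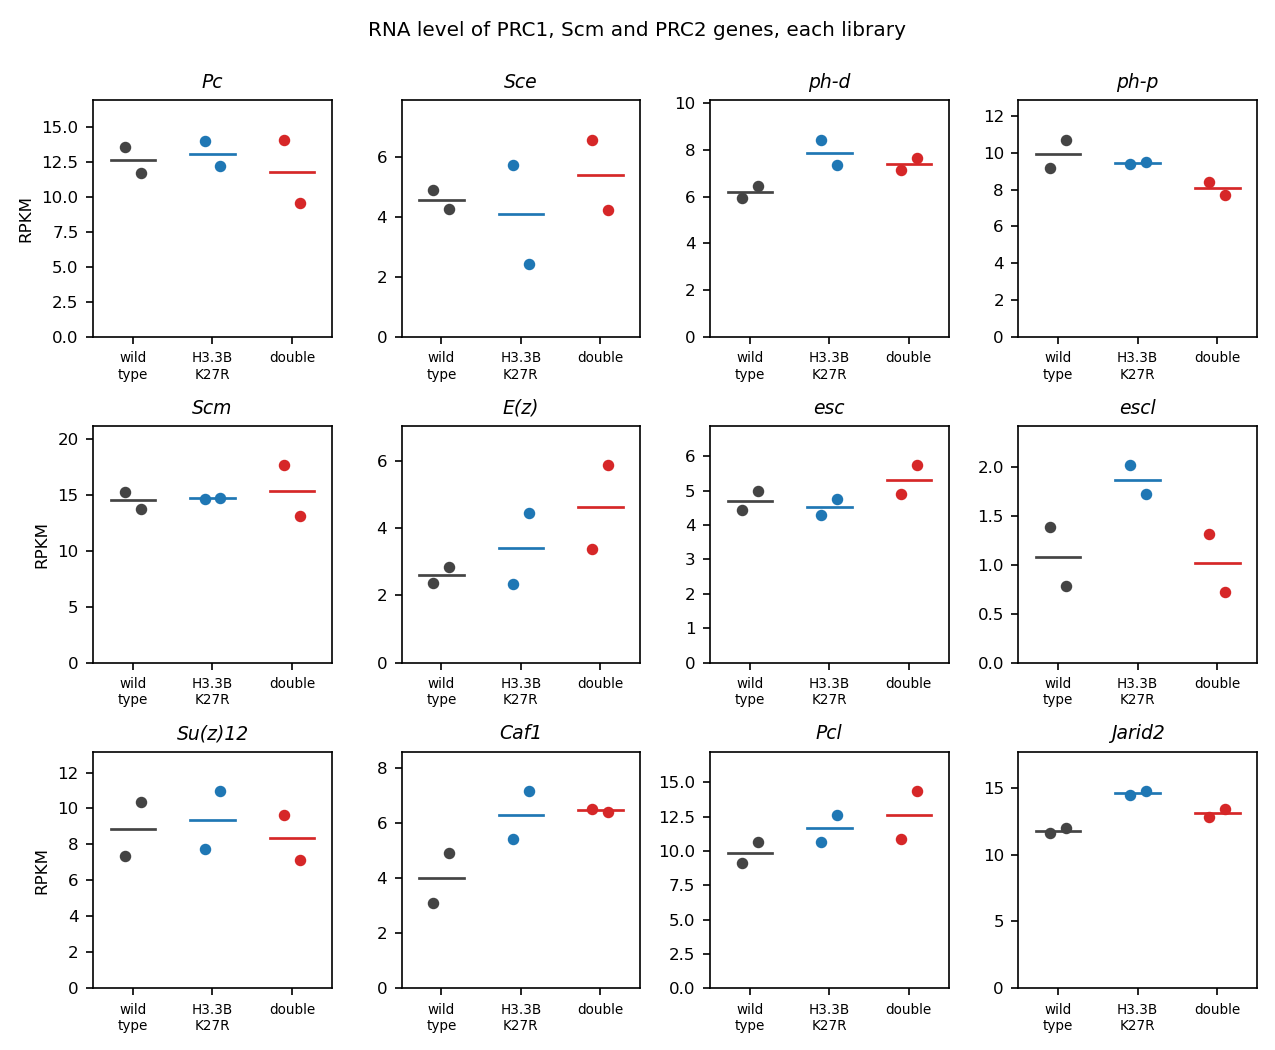
RPKM (y axis, from 0, scaled per gene) of the 12 PRC1, Scm and PRC2 genes in each library of the 3 genotypes, with points for libraries and bars for the mean of 2. Mutant points overlap wild type for Pc, Scm and Su(z)12, and lie above both wild type points in both mutants for ph-d, Caf1, Pcl and Jarid2.

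The Pho-repressive complex (PhoRC) binds Polycomb response elements, the DNA elements where PRC1 and PRC2 are recruited. The DNA-binding subunit is encoded by pho (4:1172469-1181628, BDGP6), which had 14.3 and 13.7 RPKM in wild type, 9.21 and 12.3 in the single mutant, and 15.8 and 16.1 in the double mutant. The 3 genotypes did not overlap, with the single mutant lowest and the double mutant highest. Against wild type its estimate was -0.36 on the log2 scale (95% interval -0.80 to 0.08, adjusted p 0.483) in the single mutant and 0.18 (-0.26 to 0.62, adjusted p 0.707) in the double mutant (limma). Between the mutants it was 0.54 (0.10 to 0.98), and the adjusted p of 0.305 did not pass. The paralog phol ran from 5.26 to 11.0 RPKM and the partner Sfmbt from 4.27 to 6.26 RPKM over the 6 libraries. Sfmbt was higher than wild type without overlap in both mutants, and phol overlapped in both. Sfmbt, grh and calypso share 18.4%, 19.1% and 10.1% of their exon bases with annotated features on the other strand, and their reads cannot be told apart where counting ignores strand.

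The Polycomb deubiquitinase PR-DUB removes ubiquitin from H2A. Its catalytic subunit calypso had 2.37 and 3.34 RPKM in wild type, 4.92 and 5.59 in the single mutant, and 3.38 and 6.45 in the double mutant, from 8 to 21 reads. This was the largest positive estimate of any member in the single mutant, at 0.71 on the log2 scale, with an interval of -0.09 to 1.50 that included 0. Its partner Asx was steady at 14.4 to 16.4 RPKM in all libraries. The O-GlcNAc transferase gene sxc (12.2 to 20.02 RPKM) and the demethylase gene Kdm2 (3.89 to 5.52 RPKM) overlapped wild type in both mutants.

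The enzymes that oppose PRC2 at H3K27 differed little between genotypes. Utx, the H3K27 demethylase (2L:10272325-10278811, BDGP6), had 13.1 and 12.1 RPKM in wild type, 10.6 and 10.03 in the single mutant, and 11.2 and 14.6 in the double mutant. Both single mutant libraries were below wild type, with a log2 fold change of -0.26 (95% interval -0.71 to 0.19), while the double mutant libraries lay on either side of wild type (0.025, -0.42 to 0.47). The CBP gene nej, which encodes the H3K27 acetyltransferase, had 14.4 and 16.2 RPKM in wild type, 16.2 and 17.3 in the single mutant, and 19.0 and 17.0 in the double mutant. For nej both double mutant libraries were above wild type, and the single mutant overlapped it. Its estimates of 0.12 (-0.25 to 0.49) and 0.22 (-0.15 to 0.58) had intervals that stayed well inside a 2-fold change in either direction.

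Among the H3K4 methyltransferases, trx had 13.3 and 16.7 RPKM in wild type, 15.2 and 16.5 in the single mutant, and 15.1 and 15.2 in the double mutant. The enhancer-linked enzyme gene trr had 4.55 and 6.09 RPKM in wild type, 6.54 and 5.67 in the single mutant, and 6.24 and 6.08 in the double mutant. Neither gene separated the genotypes. Set1, which encodes the main promoter H3K4 trimethylase (3L:25107594-25115180, BDGP6), had 8.48 and 8.07 RPKM in wild type, 11.4 and 11.6 in the single mutant, and 8.93 and 8.91 in the double mutant.

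The replicates of Set1 agreed closely, and the single mutant level stood apart from both other genotypes, 1.39-fold above wild type. Its log2 fold change was 0.43 (95% interval 0.02 to 0.83), the only interval of a member that excluded 0 in that comparison, and the adjusted p was 0.378 (limma). In the double mutant the fold change was 0.10 (-0.31 to 0.50), and the difference between the mutants was -0.33 (-0.73 to 0.07, adjusted p 0.492). The H3K36 methyltransferase gene ash1 overlapped wild type in both mutants at 7.92 to 11.2 RPKM. The COMPASS subunit genes wds and ash2 were above wild type without overlap in the double mutant, where ash2 had 6.57 and 7.45 RPKM against 4.98 and 4.78 in wild type and 4.82 and 5.49 in the single mutant. The interval for ash2 in the double mutant was -0.06 to 0.95, with an adjusted p of 0.403.

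The Brahma complexes, SWI/SNF remodelers of the TrxG, included the highest estimate of any member in the double mutant. The ATPase gene brm itself had 11.1 and 14.7 RPKM in wild type, 14.2 and 12.5 in the single mutant, and 15.1 and 13.8 in the double mutant, with overlap in both comparisons. The scaffold subunit gene mor had 5.05 and 5.45 RPKM in wild type, 8.25 and 6.11 in the single mutant, and 8.70 and 8.33 in the double mutant. Bap60, which encodes a core subunit of the BAF60 family, had 4.39 and 6.12 RPKM in wild type, 7.81 and 5.91 in the single mutant, and 8.64 and 8.11 in the double mutant.

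Both double mutant libraries of mor and of Bap60 were above every wild type library. The log2 fold changes in the double mutant were 0.61 (95% interval 0.08 to 1.13, adjusted p 0.280) for mor and 0.60 (0.02 to 1.18, adjusted p 0.328) for Bap60 (limma), with 32 to 63 and 14 to 30 reads per library. Polybromo, the bromodomain subunit of the PBAP form, had 2.33 and 2.58 RPKM in wild type, 2.75 and 3.66 in the single mutant, and 4.20 and 4.58 in the double mutant. Its libraries were ordered wild type, the single mutant, double mutant without overlap, and its estimate of 0.64 (-0.0014 to 1.28, adjusted p 0.338) was the highest of any member in the double mutant. Of the 9 Brahma genes, 8 had a positive estimate in the single mutant and 9 in the double mutant, with medians of 0.08 and 0.16, and none passed an adjusted p of 0.05. The summed level was 127 ± 10.9 RPKM in wild type, 139 ± 7.75 in the single mutant and 146 ± 3.34 in the double mutant (SD, n = 2 each).

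The remaining remodelers and activators included the ATPase gene Iswi, with 6.37 and 9.45 RPKM in wild type, 7.16 and 7.19 in the single mutant, and 10.3 and 10.7 in the double mutant. The double mutant libraries were above all others, and the difference between the mutants was 0.49 on the log2 scale (95% interval -0.04 to 1.03, adjusted p 0.435). The kinase-module Mediator genes skd (12.4 to 15.2 RPKM) and kto (7.19 to 9.73 RPKM) and the BET protein gene fs(1)h (18.4 to 22.5 RPKM) stayed within a narrow range. Libraries of skd and fs(1)h were lower than wild type without overlap in the single mutant, with estimates of no more than 0.17 in size.

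DNA-binding factors that recruit PcG and TrxG proteins summed to 200 ± 19.9 RPKM over 8 genes in wild type (SD, n = 2), and to 100.3 ± 8.17 RPKM over the 7 genes other than lolal. The gene lolal had 115 and 124 RPKM in the single mutant and 95.6 and 90.9 in the double mutant. The single mutant libraries were above both other genotypes, and the double mutant overlapped wild type. The difference between the mutants was -0.35 on the log2 scale (95% interval -0.64 to -0.06, adjusted p 0.305), and that between the single mutant and wild type was 0.26 (-0.03 to 0.55, adjusted p 0.442). Trl, which encodes the GAGA factor, had 1.51 to 2.92 RPKM over the 6 libraries. Trl shares 77.8% of its exon bases with the overlapping gene CG42507 on the same strand, which had 0 reads in every library, so its level is limited by how reads in overlapping genes were counted. The other GAGA-binding gene psq had 24.2 to 30.3 RPKM, and cg, grh, z, Spps and Dsp1 lay between 7.78 and 24.8 RPKM.

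Corto and E(Pc) enhance mutations of both groups. Levels of corto were 27.4 and 27.5 RPKM in wild type, 30.5 and 30.3 in the single mutant, and 33.7 and 36.5 in the double mutant, from 393 to 526 reads per library. The 3 genotypes were fully separated, with the double mutant highest. Its log2 fold change in the double mutant was 0.34 (95% interval 0.05 to 0.63), the smallest p of any member in that comparison, and the adjusted p was 0.277 (limma). E(Pc) overlapped wild type in both mutants at 13.9 to 16.5 RPKM.

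**Figure D3:**
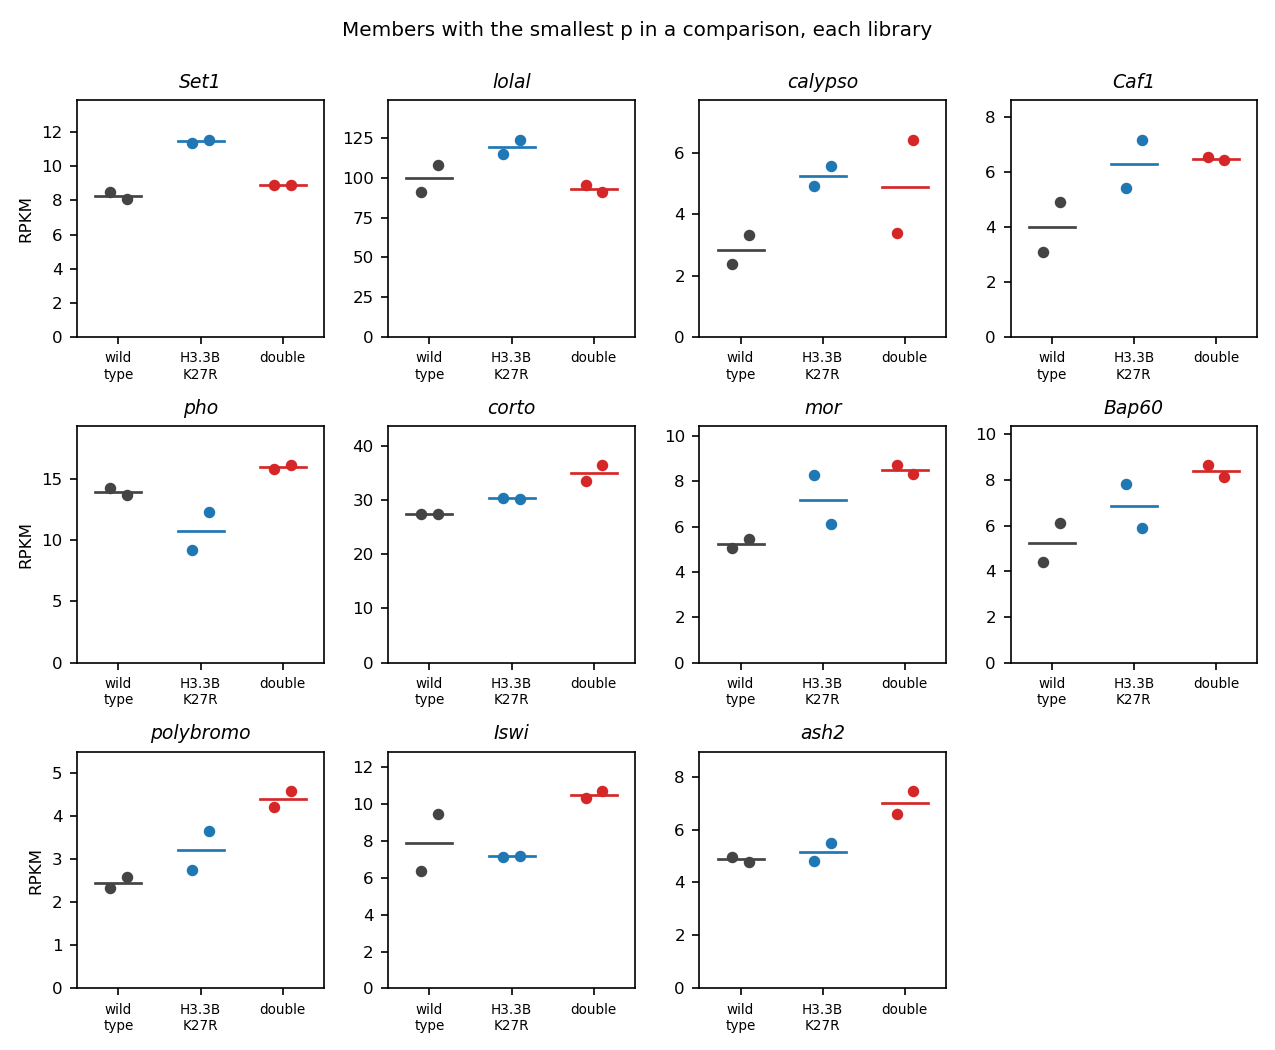
RPKM (y axis, from 0, scaled per gene) in each library for the 11 members that were among the 5 smallest p values of at least 1 of the 3 comparisons, with points for libraries and bars for the mean of 2. The points of Set1 and lolal are highest in the single mutant, and those of corto, mor, Bap60, polybromo, Iswi and ash2 are highest in the double mutant.

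Over the whole group, the question was whether replacing H3.3 K27 was accompanied by a change in the RNA of the machinery that writes, reads and opposes the H3K27 mark. In the single mutant against wild type, 0 of 51 members passed the study's thresholds (an adjusted p under 0.01 together with more than a 2-fold change) in limma, where 0.00885% of the 11304 genes tested did. At an adjusted p of 0.05 the count was 0 of 51, against 0.0619% of all genes. At an unadjusted p below 0.05, 1 member was higher (Set1) and 0 were lower, against 4.22% and 8.14% of all genes. Limma with voom weights on recovered reads likewise called 0 members. Limma without these weights did not call Psc or Su(z)2 in the single mutant either, so 0 calls do not show that members were unchanged. Libraries stood apart without overlap for 16 members that were higher and 4 that were lower (pho, Utx, skd and fs(1)h), or 31.4% and 7.84%, against 19.6% and 25.3% of all genes. The share that was higher lay above the background and the share that was lower lay below it, and neither gap was tested.

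In the double mutant against wild type, 0 of 51 members passed the study's thresholds, against 0.133% of all genes, and 0 passed an adjusted p of 0.05, against 0.832%. At an unadjusted p below 0.05, 3 members were higher (mor, Bap60 and corto) and 0 lower, where the shares over all genes were 7.19% and 7.59%. The shares of members were thus no larger than the background. Voom weights again gave 0 calls. Without overlap, 21 members were higher and 1 (ph-p) lower, or 41.2% and 1.96%, against 22.4% and 22.2% of all genes.

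Between the 2 mutants, 0 of 51 members passed the study's thresholds in limma (0.0619% of all genes) and 0 passed an adjusted p of 0.05 (0.31%), with or without voom weights. At an unadjusted p below 0.05, pho was higher and lolal lower in the double mutant, 1 member each way, against 7.42% and 5.06% of all genes. Libraries stood apart for 12 members that were higher and 7 that were lower, against 25.5% and 19.2% of all genes. These counts turned to 7 higher and 10 lower with each library centred on its median gene, and to 8 and 10 with quantile normalization. The shares of all genes were not counted under these scalings.

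Although no single member passed, the estimates leaned to one side. In the single mutant 37 of 51 members had a positive log2 fold change with a median of 0.094, against 47.8% of all genes and a median of -0.017. In the double mutant these values were 41 of 51 and 0.14, against 49.8% and -0.00049 over all genes. With each library centred on its median gene, the counts were 42 and 41. Centring also moved the median over all genes in the single mutant, from -0.017 to 0.036. The share of all genes above 0 after centring was not counted, so the rise to 42 cannot be read as one of the members alone. Both comparisons share the same wild type libraries, and those differed from each other: 41 of 51 members were above the wild type mean in replicate 2 and 10 in replicate 1. Without wild type replicate 1 the median in the single mutant was 0.035 and the count 30, and without replicate 2 they were 0.21 and 40. In the double mutant the median stayed between 0.10 and 0.19 with any library left out. Between the mutants 31 of 51 estimates were positive with a median of 0.039, against 54.0% of all genes and a median of 0.031. Centring turned the values of the members to 21 and -0.0125, and the median over all genes to -0.021.

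The intervals are for RPKM + 1, so for low genes they understate how large a change of RNA could have gone unseen. On that scale the 95% interval lay within a 2-fold change in either direction for 46 of 51 members in the single mutant, 42 in the double mutant and 44 between the mutants. These shares were 90.2%, 82.4% and 86.3%, against 59.2%, 57.5% and 58.7% of all genes. The exceptions in the single mutant were Sce, E(z), escl, Caf1 and calypso. In the double mutant Sce, E(z), Caf1, phol, calypso, mor, Bap60, polybromo and Trl had wider or higher intervals. The widest bounds of any member were 1.50 for calypso in the single mutant and 1.49 for E(z) in the double mutant on the log2 scale. The median standard error was 0.20 for members and 0.25 for all genes tested. With pseudocount 0.1 in place of 1, the members with an interval within 2-fold numbered 41, 39 and 40. With pseudocount 1, escl counted as within 2-fold in the double mutant (-0.98 to 0.89), though it had only 2 to 7 reads per library.

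**Figure D4:**
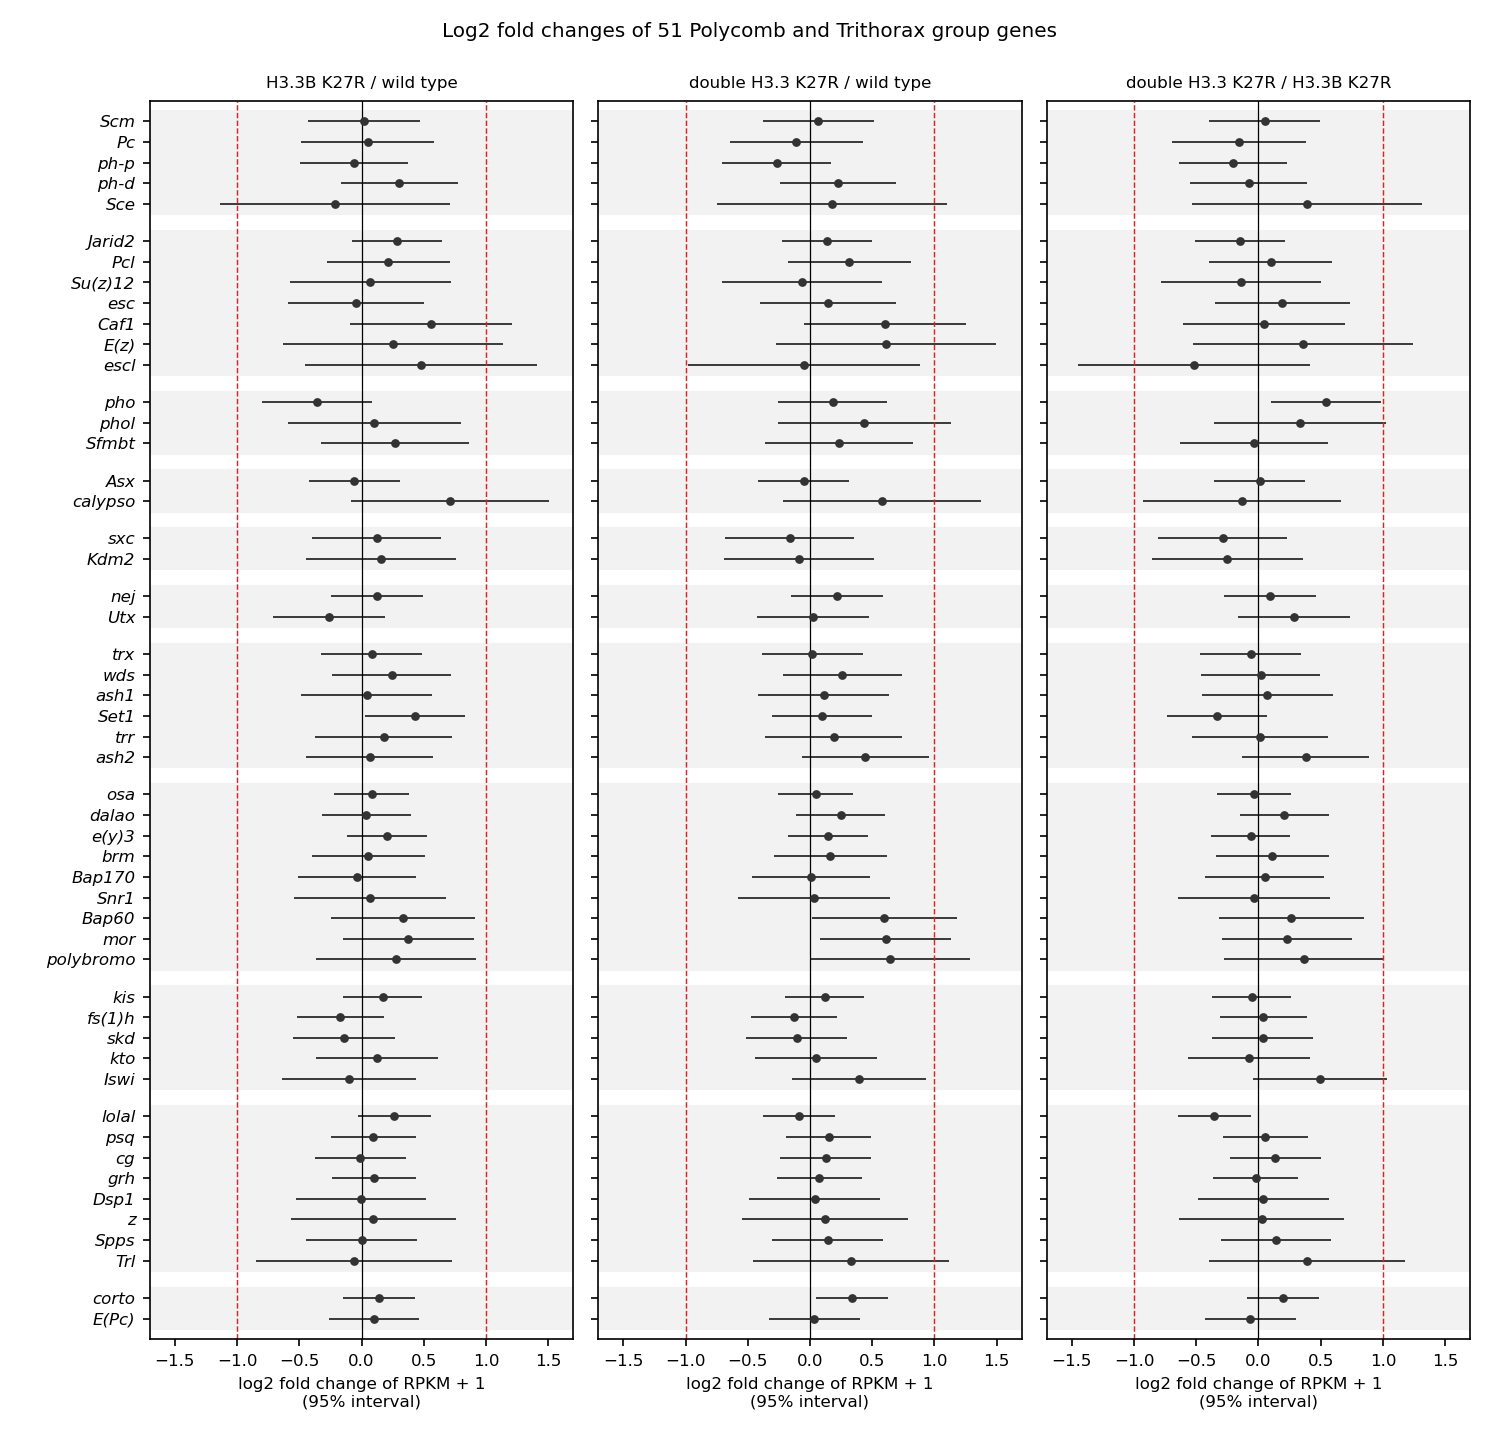
Log2 fold changes of RPKM + 1 (x axis) with 95% intervals from limma for the 51 members (y axis, grouped by role in the same order as the plot of levels), in the 3 comparisons. The solid line marks no change and the dashed lines a 2-fold change of RPKM + 1. Wholly between the dashed lines lie 46, 42 and 44 of the 51 intervals.

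Members on the X, which carries H3.3B and is dosage compensated in males, numbered 11. Their median log2 fold change was 0.12 in the single mutant and 0.19 in the double mutant, against 0.09 and 0.12 for the 40 autosomal members. The X members ran from -0.17 to 0.33 in the single mutant and from -0.27 to 0.60 in the double mutant, within or close to the spread of the autosomal ones.

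Paralogs and signature subunits of alternative complexes were compared per length within each library. All 8 pairs differed in the same direction in 6 of 6 libraries, each with p = 0.03125 in an exact two-sided sign-flip permutation test, adjusted p 0.03125 over the 8 pairs, which is the smallest p that 6 libraries allow. The test says only that the direction repeats over these libraries of 3 genotypes. A bias of gene length or mapping would repeat in each library too, so it cannot tell such a bias from a difference in transcripts. Transcripts of osa exceeded those of the PBAP subunit genes polybromo, by 3.44 ± 0.31 on the log2 scale, and Bap170, by 2.02 ± 0.10 (mean ± SD of log2(RPKM + 1), n = 6). The Brahma gene e(y)3 was in no pair and had 18.9 and 20.1 RPKM in wild type. The paralog esc exceeded escl (log2 ratio of escl to esc -1.36 ± 0.43), pho exceeded phol by 0.84 ± 0.37, and trx exceeded trr (trr to trx -1.25 ± 0.12). Set1 exceeded trr by 0.62 ± 0.22, and Utx exceeded E(z) by 1.55 ± 0.40. Transcripts of ph-p exceeded those of ph-d by 0.32 ± 0.25, with the limit on these paralogs given above.

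Some of these ratios separated the genotypes. The ph-p to ph-d ratio was 0.55 and 0.65 in wild type, 0.14 and 0.33 in the single mutant, and 0.21 and 0.01 in the double mutant, so both mutants lay below wild type. The osa to polybromo ratio was 3.68 and 3.73 in wild type, 3.72 and 3.3 in the single mutant, and 3.23 and 2.99 in the double mutant. The Utx to E(z) ratio was 2.07 and 1.77 in wild type, 1.80 and 1.02 in the single mutant, and 1.49 and 1.18 in the double mutant. For both of the latter the double mutant lay below wild type and the single mutant overlapped it. With 2 libraries against 2 an exact permutation test cannot go below p = 0.333, and no other test of these differences between genotypes was made.

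**Figure D5:**
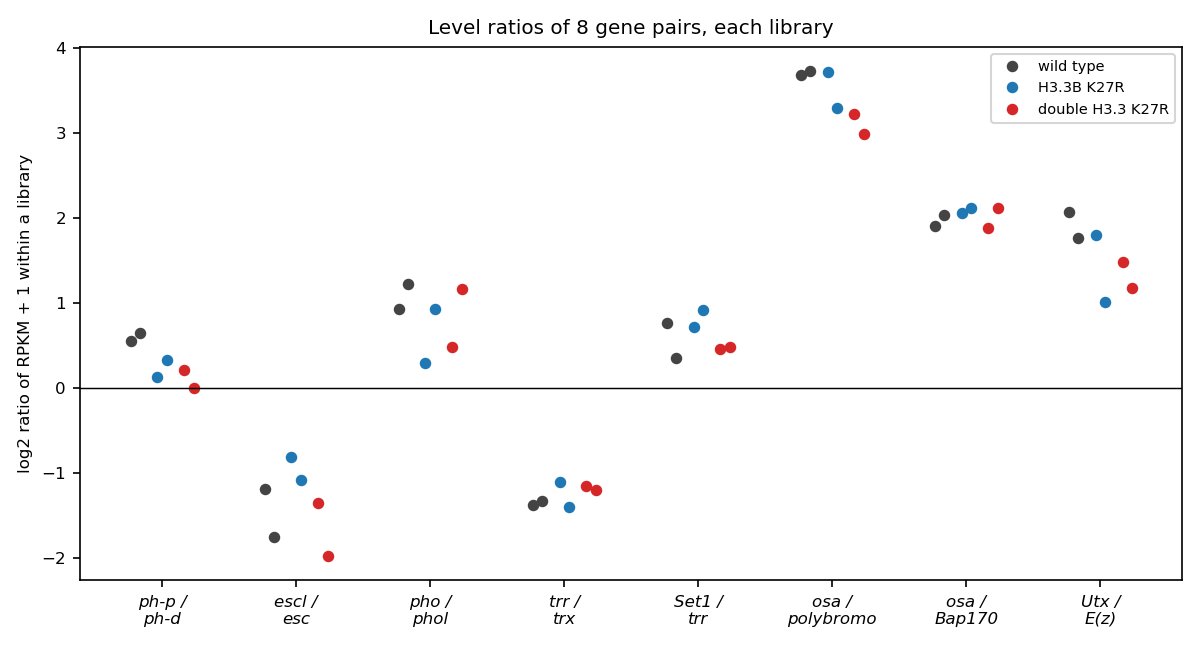
Log2 ratio of RPKM + 1 of 2 genes within a library (y axis) for 8 gene pairs (x axis), with 1 point per library coloured by genotype and a line at equal levels. Every pair keeps its side of the line in 6 of 6 libraries, and the ph-p to ph-d ratio is lower in the 4 mutant libraries (0.01 to 0.33) than in wild type (0.55 and 0.65).

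A list of further PcG and TrxG pathway genes held 34 symbols, some of them other names of the same gene, and 31 were found and tested. With the study's thresholds applied to limma on log2(RPKM + 1), in place of the study's own count model, 0 passed in the single mutant and 1 in the double mutant, Su(z)2, one of the 2 genes left out by name. At an adjusted p of 0.05 the counts were 0 in the single mutant, 2 higher and 0 lower in the double mutant (Psc and Su(z)2) and 0 between the mutants (limma). At an unadjusted p below 0.05 the corresponding counts were 2 higher (Psc and Su(z)2), 4 higher and 2 higher, with 0 lower each time. Psc, a PRC1 subunit, averaged 6.65, 18.1 and 22.7 RPKM in wild type, the single mutant and the double mutant. Su(z)2 averaged 10.6, 25.5 and 38.8 RPKM. The paper reports both genes as differentially expressed in each mutant with its own count model. In the single mutant limma gave Psc a log2 fold change of 1.32 (95% interval 0.91 to 1.73, adjusted p 0.091). For Su(z)2 limma gave 1.19 there (0.85 to 1.54, adjusted p 0.081). Failing these thresholds in limma therefore does not show that a gene was unchanged. In the double mutant the log2 fold change of Su(z)2 was 1.78 (95% interval 1.43 to 2.13, adjusted p 0.008, limma). The intervals of 50 of the 51 members lay wholly below its interval, E(z) being the exception, and 47 lay below that of Psc. In the single mutant these counts were 43 for Su(z)2 and 45 for Psc. Both genes were known from these data to be raised, so the counts are not a test of the members. The 29 other genes of the list had a median of 0.047 in the single mutant and 0.11 in the double mutant.

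Between the 2 libraries of a genotype, 9 members in wild type, 3 in the single mutant and 6 in the double mutant differed by more than a chi-square limit on their reads, or 17.6%, 5.88% and 11.8%, against 16.4%, 8.81% and 13.2% of all genes tested. The median gap between replicates was 0.16, 0.15 and 0.16 on the log2 scale for members and 0.26, 0.21 and 0.25 for all genes.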

How the data were processed

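Per the labels and the study's methods, total RNA of whole male pharates was made into libraries with the Nugen Ovation kit. The authors' processing notes list STAR 2.5.2b, SAMtools 1.3.1, Subread 1.28.1, DESeq2 1.18.1 and build dm3, which the authors modified at the histone genes. The deposited RPKM values were made by the authors with a custom script, and technical runs of 1 H3.3B K27R library were merged by the authors. The mean signal per gene that the authors deposited, made by the authors with DESeq2 size factors, was used only to recover reads. The authors' fold changes and p-values in that file were not used. Multiplying RPKM by gene length and depth gave whole reads for 100% of 73342 values above 0 (tolerance 0.05 reads).

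Log2(RPKM + 1) of the 11304 genes with a mean of at least 1 RPKM was fitted with limma 3.58.1 (trend, all 6 libraries, genotype only) in R 4.3.3, with Benjamini-Hochberg adjustment over all genes tested. Fold changes on this scale understate those of low genes. Alternatives were pseudocount 0.1, other filters, quantile normalization, median centring, fits of the 2 genotypes alone, the replicate number as a block, voom weights on recovered reads, no trend, and each library left out.

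The members and lists were chosen with earlier results of these data known. Values in every library were given for PRC1 and PRC2 members, Utx, nej, trx, trr, Set1, brm and the 5 members with the smallest p in each comparison, and other members by range and count. In BDGP6, 51 of 51 members were matched, 3 of them by an older symbol, and 45 had an exon length within 5% of the length implied by RPKM. No sequences were used. Replicate gaps were set against counting error with a chi-square limit of 3.84 on reads. Counting error is the only error in read-based limits.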

Additional observations from a re-analysis of the deposited data

How the results depend on the processing

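The count of members called stayed at 0 in the 3 comparisons under all 16 alternatives, at the study's thresholds and at an adjusted p of 0.05, also with the replicate block (0 members). With the block the median log2 fold changes were unchanged by construction (0.094, 0.14 and 0.039). Same-numbered libraries did not deviate together (correlations over genes of 0.0165, -0.209 and 0.00931), so the numbers do not pair them. Swapping the numbers of the double mutant, chosen after seeing the data, also gave 0 calls. Without filter on low values the same 51 members were tested, and with a mean of at least 5 RPKM 43 were.

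The median log2 fold change of members between the mutants was -0.016 with quantile normalization and -0.0125 with median centring. With 1 library left out it ran from -0.0079 to 0.057 in that comparison, from 0.035 to 0.21 for the single mutant and from 0.10 to 0.19 for the double mutant against wild type. A lone library was assumed to vary like the others. Members with an interval within 2-fold numbered 35 to 45, 35 to 40 and 34 to 43 of 51 with 1 library left out. Members whose libraries stood apart in the single mutant numbered 23 higher and 3 lower under either other scaling, chosen after seeing the data, and between the mutants 7 higher and 10 lower with median centring and 8 and 10 with quantile normalization. The shares of all genes that stood apart were not counted under these scalings. In the single mutant the median over all genes also moved, from -0.017 to 0.036 with median centring and 0.038 with quantile normalization. The shift in these counts therefore cannot be read as one of the members alone. With pseudocount 0.1 the log2 ratios were -1.87 for escl to esc, -1.38 for trr to trx and 3.76 for osa to polybromo. With 1 of 6 libraries left out the pair test cannot go below p = 0.0625 in an exact permutation. At 1535941 to 2118264 reads per library, 11 members had fewer than 20 reads in a library.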
